A study of Mus musculus with 32 samples.

Results

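Hindlimb skeletal muscle of C57BL/6 mice aged 80 weeks was compared between the hours after lights on and the hours after lights off. Zeitgeber time (ZT) counts the hours from lights on. The arrays at ZT 0 and 3 made up the early light window, and those at ZT 12 and 15 the early dark window. Each ZT had 2 arrays, numbered as repeats 1 and 2, so that 4 arrays stood against 4, out of 16 arrays at this age and 32 in the series. The labels name no mutation and no agent for these groups. All mice had been kept in 12 h of light and 12 h of darkness with food freely available, and the series also holds the same 8 times of day at 8 weeks. Each GeneChip Mouse Gene 2.0 ST array measured a pool of RNA from 3 mice, so that the comparison rests on 24 mice, and p-values measure the spread between pools and not between single mice. The labels do not name the single muscles taken or the sex.

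The circadian clock of a mammalian cell is a loop of transcription. The activators BMAL1 (the product of Arntl) and CLOCK switch on the period and cryptochrome genes, whose proteins return to block them, while the nuclear receptors REV-ERB and ROR set the daily level of Arntl itself. Muscle runs this loop in its own fibres, and light, feeding and activity set its hour. Mice feed and move mainly in the dark, so that the early light window falls at the start of their rest and the early dark window at the start of their activity.

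The values are log2 expression levels, on which a difference of 1 is a 2-fold change. All differences are early dark minus early light with their standard error, and adjusted p-values are limma's, with Benjamini-Hochberg adjustment over 23279 genes and a threshold of 0.05. The spread was taken from all 16 arrays of this age, between repeats of the same ZT. The 10 genes of muscle fibre identity had a mean between 12.6 and 12.8 on the 8 arrays, near the top of the scale, which ends at 13.69. In whole muscle, fewer cells of a type and less RNA per cell cannot be told apart.

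One array stood apart from the other 7. On ZT 15 repeat 2 the 20 measured genes of collagen and matrix had a mean of 9.83, against 7.81 to 8.64 on the others, and 18 of them (90%) were highest there, against 18.6% of all genes. The 11 macrophage markers had a mean of 7.69 there, against 6.42 to 7.39. Of all genes, 208 lay more than 1 above the mean of the other 7 arrays on this array, against 106 on ZT 3 repeat 1, 53 on ZT 0 repeat 1 and 15 to 28 on the rest. In the other direction, 36 genes lay more than 1 below that mean on it, against 16 to 53 on the other arrays. Values without this array are given beside many of the results below.

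In aged muscle 11 genes were higher in early dark (0.0473% of the genes tested) and 3 were higher in early light (0.0129%). Those higher in early dark were Per1, Dbp, Arrdc2, Per2, Cep85l, Fmo2, Nrip1, Wee1, Arrdc3, Mid1ip1 and Usp2, by 1.66-fold to 2.87-fold. Those higher in early light were Arntl, Pfkfb3 and Gm3667. Of the 14 genes, 6 belonged to the lists of clock genes and clock output, 8 differed by 2-fold or more, and in all 14 the 4 arrays of one window lay apart from the 4 of the other. Over all genes, 499 had all 4 early dark arrays above all 4 early light arrays (2.14%) and 398 had the reverse (1.71%). At an unadjusted p under 0.05 there were 840 genes higher in early dark and 696 higher in early light, and the median difference of all genes was -0.000109. A fit on the 8 compared arrays alone gave 4 and 2 genes as 2 groups, with 5 of the 14 still past the threshold, and 3 and 2 genes with 4 ZT, with 4 of the 14. Left out one at a time, the 8 arrays gave other counts. In each such fit, here and below, the ZT of the missing array kept a single array, which adds nothing to the spread. Without ZT 15 repeat 1, the ZT 15 values were thus those of ZT 15 repeat 2 alone, the array that stood apart. The genes higher in early dark numbered 6 without ZT 0 repeat 1, 7 without ZT 3 repeat 1, 2 without ZT 12 repeat 1, 28 without ZT 15 repeat 1 and 8 without ZT 15 repeat 2. Those higher in early light numbered 11 without ZT 3 repeat 2, 2 without ZT 0 repeat 2 or without ZT 15 repeat 2, and 1 without ZT 0 repeat 1, ZT 3 repeat 1, ZT 12 repeat 1 or ZT 12 repeat 2.

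**Figure D1:**
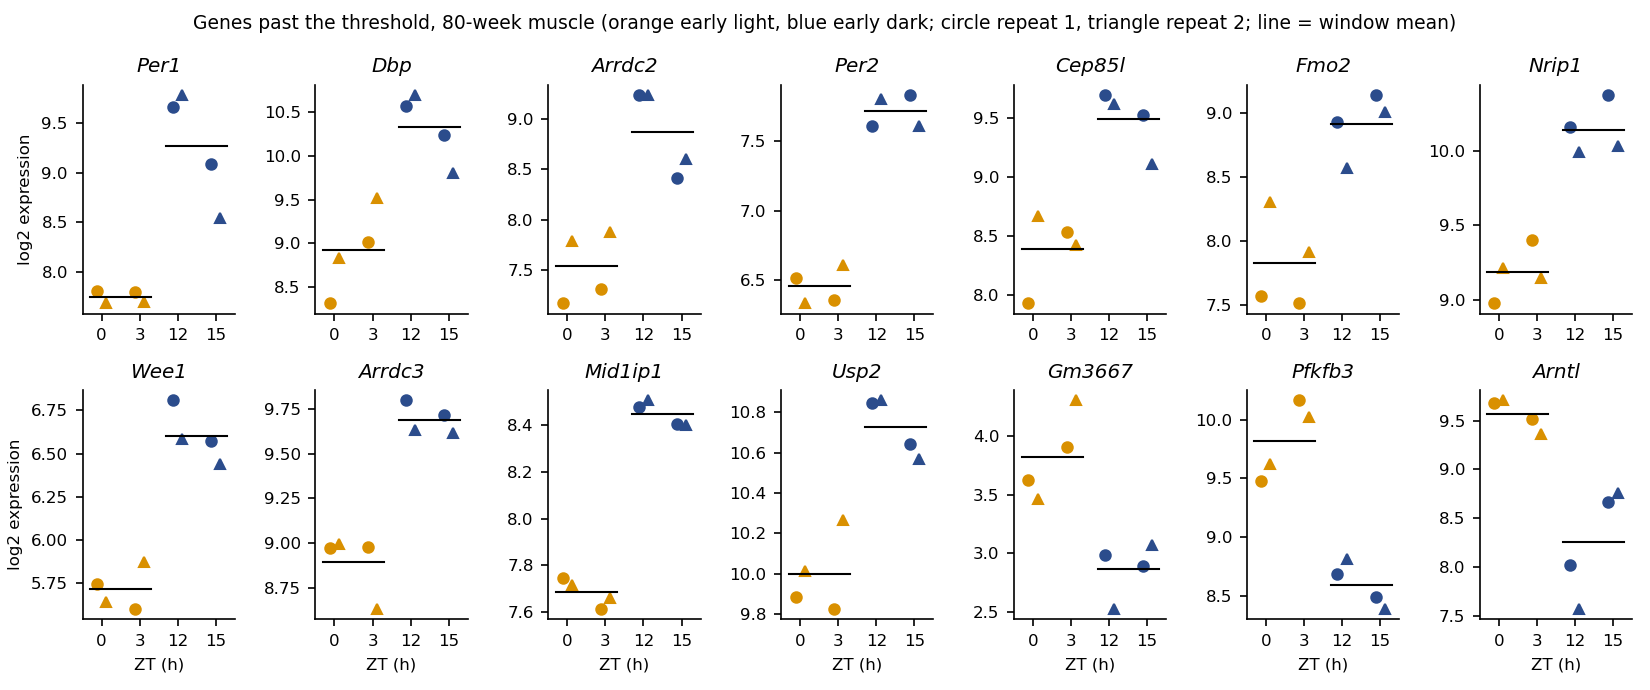
Log2 expression (vertical axis, a range of its own per gene) of the 14 genes past the threshold on the 4 early light arrays (orange, ZT 0 and 3) and the 4 early dark arrays (blue, ZT 12 and 15). Circles are repeat 1, triangles repeat 2 and lines the mean of 4 arrays; in every panel all 4 points of one colour lie above all 4 of the other.

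The promoters of 2 clock genes that moved in opposite directions, Per1 and Arntl, are shown here because their sequences hold the letters through which activators and nuclear receptors are known to act in the clock loop. Both are RefSeq windows of build GRCm38.p6, from 250 bases before to 50 after the start of the gene, and both genes lie on the plus strand. Capitals mark the E-box in Per1 (chr11:69098699-69098998), whose first base is at -166 from the start, and the core of a ROR element in Arntl (chr7:113207261-113207560), which begins at base 31 after the start. Each of the 2 genes has a further start in the table, whose window holds neither motif.
Per1: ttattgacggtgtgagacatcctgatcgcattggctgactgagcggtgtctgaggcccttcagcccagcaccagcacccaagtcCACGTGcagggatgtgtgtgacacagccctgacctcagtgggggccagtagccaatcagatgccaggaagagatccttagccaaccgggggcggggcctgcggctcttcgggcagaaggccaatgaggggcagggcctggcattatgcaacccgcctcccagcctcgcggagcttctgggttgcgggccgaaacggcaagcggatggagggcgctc
Arntl: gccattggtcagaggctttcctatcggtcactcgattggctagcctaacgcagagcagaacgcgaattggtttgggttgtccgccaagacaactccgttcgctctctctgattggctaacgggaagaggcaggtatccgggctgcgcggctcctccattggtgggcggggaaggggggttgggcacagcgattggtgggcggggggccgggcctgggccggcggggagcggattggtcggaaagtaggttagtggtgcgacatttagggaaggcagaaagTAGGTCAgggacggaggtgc
The E-box was searched as CACGTG, the D-box as TTATGTAA or TTACGTAA, the ROR core as TAGGTCA, the heat shock element as GAANNTTC and the glucocorticoid element core as ACANNNTGT, all on both strands. Of 21161 promoters of measured genes, 8.08% held the E-box, 0.988% the D-box, 2.33% the ROR core, 6.96% the heat shock element and 5.98% the glucocorticoid core. Counted by gene, with any of its promoters, the shares over 17466 genes were 9.21%, 1.15%, 2.71%, 8.15% and 6.96%. Promoters were found for 9 of the 11 genes higher in early dark and for all 3 higher in early light. Among these, the E-box was in Per1, higher in early dark, and in Pfkfb3, higher in early light. The ROR core was in Arntl and the glucocorticoid core in Mid1ip1. Of the 9 genes higher in early dark, 1 held the E-box (11.1%), against 9.21% of all genes with a promoter. The promoters of Dbp and Usp2, also of the clock lists, held none of these motifs. The matches are a description of letters only.

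Among the 4 activator genes of the clock, Arntl was 2.48-fold higher in early light. Its log2 levels were 9.68 and 9.71 at ZT 0, 9.51 and 9.36 at ZT 3, 8.03 and 7.58 at ZT 12, and 8.67 and 8.76 at ZT 15. The lowest early light array lay above the highest early dark one, and ZT 12 was lower than ZT 15 on both repeats. The difference was -1.31 ± 0.111 (adjusted p = 0.000264), and it passed the threshold without any single array, with sizes from 1.20 to 1.42. Clock, the partner of BMAL1, had levels of 10.3 to 10.5 in early light and 9.81 to 10.2 in early dark, which did not overlap. Its difference of -0.43 ± 0.0809 did not pass (adjusted p = 0.102). Npas2, which encodes a protein that can take the place of CLOCK, had no overlap either, with 6.05 to 6.60 against 5.09 to 5.75. Its difference of -0.97 ± 0.213 did not pass (adjusted p = 0.184). Arntl2, a relative of Arntl, differed by 0.22 ± 0.107 (adjusted p = 0.759).

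The period genes Per1 and Per2, whose proteins repress BMAL1 and CLOCK, were higher in early dark. Per1 was at 7.81 and 7.69 at ZT 0 and at 7.80 and 7.69 at ZT 3, then at 9.66 and 9.78 at ZT 12 and at 9.09 and 8.54 at ZT 15. The 4 early light arrays lay close together, while the early dark arrays fell into a higher pair at ZT 12 and a lower pair at ZT 15. Its difference of 1.52 ± 0.181, or 2.87-fold, had an adjusted p of 0.00723. Without ZT 12 repeat 1 it was 1.55 and just missed the threshold. Per2 was at 6.52 and 6.34 at ZT 0, 6.36 and 6.61 at ZT 3, 7.61 and 7.81 at ZT 12, and 7.83 and 7.61 at ZT 15. Both early dark times were alike within the spread of their repeats, and so were both early light times. Its difference was 1.26 ± 0.105, or 2.39-fold (adjusted p = 0.000264), and no single array changed this call. Per3 had 6.54 to 7.32 in early light and 7.14 to 8.11 in early dark, and its overlap came from ZT 15 repeat 2, the lowest early dark array. Its difference of 0.78 ± 0.152 did not pass (adjusted p = 0.111), and without that array it was 0.93 ± 0.147 (adjusted p = 0.0598). Of the cryptochromes, the partners of the period proteins, Cry2 had 7.66 to 7.97 against 8.02 to 8.50 with no overlap and a difference of 0.45 ± 0.0999 that did not pass (adjusted p = 0.199). Cry1 had a difference of 0.04 ± 0.0962 (adjusted p = 0.976), and over the day its mean level was highest at ZT 21, outside both windows.

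None of the 7 measured nuclear receptor and bHLH regulators passed, among them some of the genes with the widest daily range. Nr1d1, which encodes REV-ERBα, a repressor of Arntl, had 10.7 and 10.7 at ZT 0, 11.4 and 11.1 at ZT 3, 10.3 and 10.1 at ZT 12, and 9.74 and 8.70 at ZT 15. All early light arrays lay above all early dark ones, and its repeats at ZT 15 lay far apart. Its difference was -1.25 ± 0.273 (adjusted p = 0.184), and -0.99 ± 0.268 without ZT 15 repeat 2 (adjusted p = 0.432). Ciart, a repressor of BMAL1 and CLOCK, had 8.04 and 8.16 at ZT 12 but 7.23 and 6.34 at ZT 15, against 6.80 to 7.13 in early light. The mean over both early dark times thus joined a high and a low time, with a difference of 0.45 ± 0.164 (adjusted p = 0.645). Rorb, a ROR receptor, differed by 0.44 ± 0.105 with no overlap (adjusted p = 0.271). Nr1d2, which encodes REV-ERBβ, and Rora, another activator of Arntl, differed by 0.18 ± 0.153 and 0.11 ± 0.0939, and Nr1d2 by 0.35 ± 0.141 without ZT 15 repeat 2 (adjusted p = 0.672). Bhlhe40 and Bhlhe41, repressors that bind E-boxes, differed by 0.11 ± 0.111 and -0.08 ± 0.124, and Bhlhe41 turned to 0.04 ± 0.120 without that array.

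Dbp, the PAR bZIP activator that carries the clock's phase to its output genes, was 2.65-fold higher in early dark. Its levels were 8.32 and 8.84 at ZT 0, 9.02 and 9.52 at ZT 3, 10.6 and 10.7 at ZT 12, and 10.2 and 9.81 at ZT 15. The gap between the windows was small at its edge, from 9.52 at ZT 3 to 9.81 at ZT 15. The difference of 1.41 ± 0.144 (adjusted p = 0.00176) passed without any single array. Its relatives Hlf and Tef differed by 0.54 ± 0.174 (adjusted p = 0.564) and 0.18 ± 0.0999 (adjusted p = 0.811). Nfil3, which represses the same D-box genes, had a difference of -0.01 ± 0.159 over the windows. This was the mean of -0.57 at ZT 12 against ZT 0 and 0.54 at ZT 15 against ZT 3, and without ZT 15 repeat 2 it was -0.13 ± 0.167.

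Of the 9 measured output genes, Wee1 and Usp2 were higher in early dark. Wee1, a kinase that delays entry into mitosis, was at 5.74 and 5.64 at ZT 0, 5.60 and 5.87 at ZT 3, 6.81 and 6.59 at ZT 12, and 6.57 and 6.44 at ZT 15. The windows lay clearly apart, and the difference was 0.89 ± 0.111 (adjusted p = 0.00760). Without ZT 3 repeat 1 or ZT 12 repeat 1 its adjusted p was 0.0537 or 0.0638. Usp2, a deubiquitinating enzyme, had 9.83 to 10.3 in early light and 10.6 to 10.9 in early dark, a difference of 0.73 ± 0.115 (adjusted p = 0.0417). It passed in 1 of the 8 fits without an array (without ZT 3 repeat 2), and its adjusted p in the other 7 ran up to 0.192. Tcap, which encodes telethonin of the sarcomere, and Lonrf3 did not overlap, with differences of 0.34 ± 0.126 (adjusted p = 0.663) and 0.46 ± 0.176 (adjusted p = 0.673). Coq10b, Tspan4, Cys1, Nampt (of NAD synthesis) and Dtx4 overlapped, with differences between -0.07 and 0.30.

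The clock lists together held 29 genes, of which 5 were higher in early dark, 1 was higher in early light and 23 did not pass. In 13 of them (44.8%) the windows did not overlap, 9 with early dark above and 4 with early light above, against 3.85% of all genes. Their median difference was 0.24, against -0.000109 over all genes. Earlier results of these data were known when these genes were listed, so that the counts describe the lists.

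**Figure D2:**
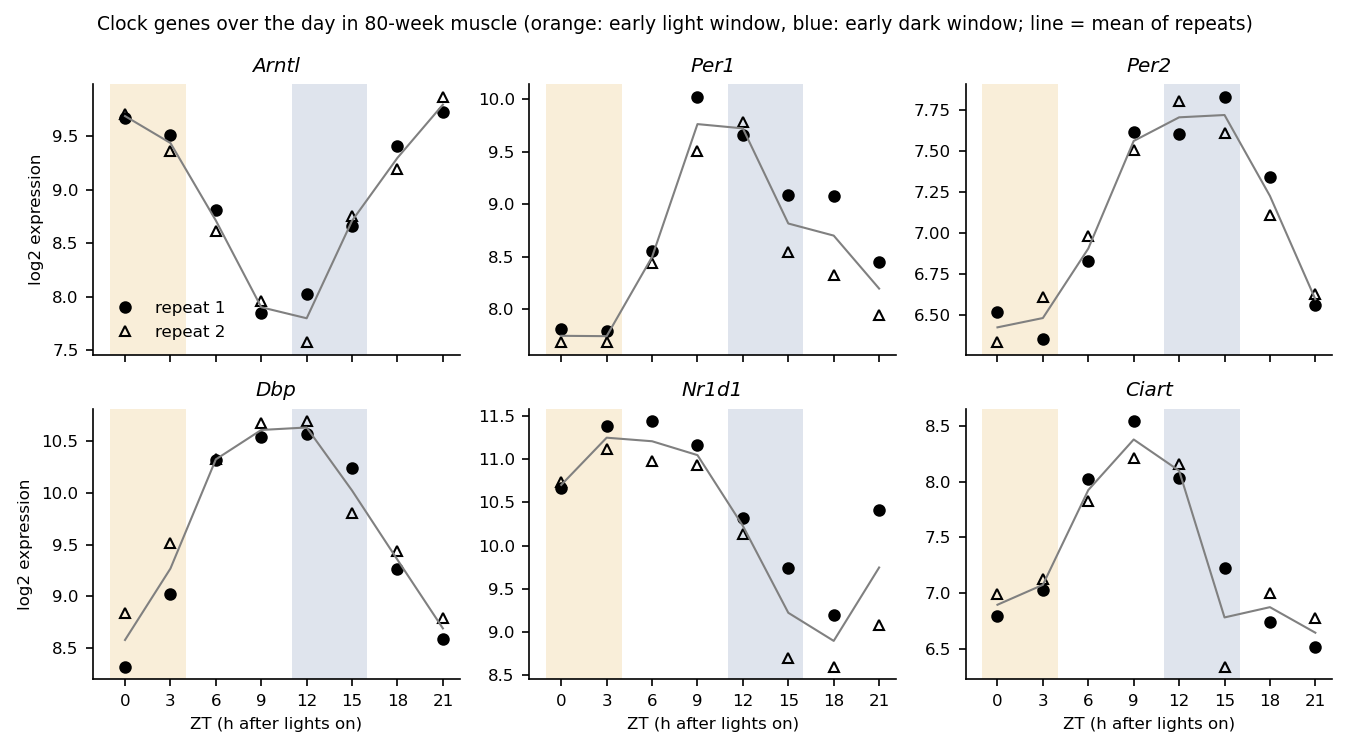
Log2 expression (vertical axis, a range of its own per gene) over ZT (horizontal axis, h) of 6 clock genes in muscle at 80 weeks, with repeat 1 as filled circles, repeat 2 as open triangles and their mean as a line. The orange and blue bands mark the compared windows; the mean of Arntl is lowest at ZT 12 and those of Per1 and Ciart are highest at ZT 9, between the windows.

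Over the full day at this age the windows caught different stretches of each curve. The mean level of Arntl fell from 9.69 at ZT 0 to 7.80 at ZT 12 and stood at 9.80 at ZT 21. Per1 was highest at ZT 9, at 9.76, and its range over the day was 2.02. Per2 had its 3 highest means at ZT 9, 12 and 15, at 7.56, 7.71 and 7.72. Nr1d1 had its highest mean at ZT 3 (11.2) and its lowest at ZT 18 (8.90), so that its daily range of 2.35 was wider than the windows show. These curves are a description over 2 arrays per time.

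Outside the clock lists, 6 further genes were higher in early dark. Arrdc2 and Arrdc3 encode arrestin-domain proteins, which take part in the sorting of membrane proteins. Arrdc2 was at 7.17 and 7.79 at ZT 0, 7.30 and 7.88 at ZT 3, 9.24 and 9.24 at ZT 12, and 8.42 and 8.61 at ZT 15. Every early dark array was above every early light one, with ZT 12 the highest. Its difference of 1.34 ± 0.164 was 2.54-fold (adjusted p = 0.00741), and without ZT 12 repeat 1 its adjusted p was 0.0625. Arrdc3 had 8.97, 9.00, 8.98 and 8.63 in early light and 9.61 to 9.80 in early dark. Its low early light array was ZT 3 repeat 2. Its difference was 0.79 ± 0.102 (adjusted p = 0.00760), with adjusted p of 0.0530 without ZT 0 repeat 1 and 0.0638 without ZT 12 repeat 1.

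Cep85l, which encodes a centrosomal protein, had 7.93 and 8.67 at ZT 0, 8.53 and 8.42 at ZT 3, 9.69 and 9.62 at ZT 12, and 9.52 and 9.11 at ZT 15. Its difference of 1.10 ± 0.142 (adjusted p = 0.00760) had an adjusted p of 0.0638 without ZT 12 repeat 1. Nrip1 encodes RIP140, a corepressor of nuclear receptors that restrains oxidative genes in muscle. Its levels were 8.98 and 9.21 at ZT 0, 9.40 and 9.14 at ZT 3, 10.2 and 9.99 at ZT 12, and 10.4 and 10.0 at ZT 15. Both early dark times were high, and the difference was 0.96 ± 0.121, or 1.94-fold (adjusted p = 0.00760). Without ZT 0 repeat 1 or ZT 12 repeat 1 its adjusted p was 0.0530 or 0.0638.

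Fmo2, a flavin-containing monooxygenase, had 7.52 to 8.31 in early light and 8.57 to 9.14 in early dark. The difference was 1.08 ± 0.154 (adjusted p = 0.0179), and its adjusted p was 0.0530 without ZT 0 repeat 1, 0.140 without ZT 3 repeat 1, 0.127 without ZT 12 repeat 1 and 0.0598 without ZT 15 repeat 2. Mid1ip1 encodes a partner of acetyl-CoA carboxylase that promotes fatty acid synthesis. It had the tightest values of the 14 genes, at 7.75, 7.72, 7.61 and 7.66 in early light and 8.48, 8.51, 8.40 and 8.40 in early dark, with an SD of 0.0586 and 0.0534 (n = 4 each). Its difference was 0.76 ± 0.103, or 1.70-fold (adjusted p = 0.0108). Leaving out any of 6 arrays (both of ZT 0, both of ZT 12, ZT 3 repeat 1, ZT 15 repeat 2) gave adjusted p from 0.0530 to 0.0797 at nearly the same size, 0.75 to 0.78 over all 8 fits.

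Pfkfb3 makes fructose 2,6-bisphosphate, the activator of phosphofructokinase and thereby of glycolysis, and was 2.34-fold higher in early light. Its levels were 9.48 and 9.62 at ZT 0, 10.2 and 10.0 at ZT 3, 8.69 and 8.82 at ZT 12, and 8.49 and 8.39 at ZT 15. Both times of each window lay on the same side, with ZT 3 the highest. The difference of -1.22 ± 0.177 had an adjusted p of 0.0194. It passed without ZT 15 repeat 1 and without ZT 3 repeat 2, and its adjusted p was 0.0716 to 0.144 in the other 6 fits without an array, at sizes of 1.19 to 1.26 over all 8. Gm3667 is a predicted gene with levels of 3.46 to 4.31 in early light and 2.53 to 3.07 in early dark, near the low end of the arrays. Its difference of -0.96 ± 0.154 (adjusted p = 0.0497) passed in none of the 8 fits without an array, where the adjusted p was 0.0638 to 0.213.

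The genes next in order of p did not pass. In early dark these were Vmn2r-ps11, Slc43a3, Prodh, Banp and Fam107a, all with an adjusted p of 0.0593. Slc43a3, a purine transporter, had 8.08 to 8.68 in early light and 8.93 to 9.18 in early dark, with no overlap and a difference of 0.72 ± 0.121. Prodh, which begins the breakdown of proline, differed by 0.62 ± 0.104, and Fam107a by 0.56 ± 0.0958. In early light the next were Relt, a member of the TNF receptor family, at -0.67 ± 0.112 (adjusted p = 0.0593), then Rsl1, Slc9a2, Hbb-b1 and Fam110b with adjusted p from 0.0789 to 0.111.

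The 2 pairs of times 12 h apart, from which the windows are built, were also tested one by one. ZT 12 against ZT 0 gave 7 genes (0.0301%), with Dbp, Per1, Per2, Arrdc2 and Cep85l higher at ZT 12 and Arntl and Hbb-b1, a beta globin of red cells, lower. ZT 15 against ZT 3 gave 1 gene (0.0043%), Per2. At an unadjusted p under 0.05 the pairs gave 1066 and 1490 genes. Arntl differed by -1.89 ± 0.156 in the first pair and by -0.73 ± 0.156 in the second, Dbp by 2.06 ± 0.204 and 0.75 ± 0.204, and Per1 by 1.97 ± 0.257 and 1.07 ± 0.257. Per2 had nearly the same difference in both, 1.28 ± 0.148 and 1.24 ± 0.148. Pfkfb3 (-0.80 and -1.65), Fmo2 (0.81 and 1.36) and Nr1d1 (-0.47 and -2.02) had the larger size in the second pair, and Ciart changed sign, from 1.20 to -0.29. Hbb-b1 differed by -1.49 ± 0.213 in the first pair and by -0.16 ± 0.213 in the second. A fit without ZT 15 repeat 1 sets ZT 15 repeat 2 alone, the array with the high collagen and matrix mean, against ZT 3. The median difference of the collagen and matrix list in this pair was then 1.65, against -0.22 without ZT 15 repeat 2. The count for the second pair rested on single arrays. It was 132 genes without ZT 15 repeat 1, 126 of them higher at ZT 15 and 10 of them from the collagen and matrix list, 18 without ZT 3 repeat 2, 2 without ZT 0 repeat 1 or ZT 0 repeat 2, and 0 without ZT 3 repeat 1, ZT 12 repeat 1, ZT 12 repeat 2 or ZT 15 repeat 2. The count for the first pair was 2 without ZT 0 repeat 1, 3 without ZT 12 repeat 1 and 4 without ZT 12 repeat 2.

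**Figure D3:**
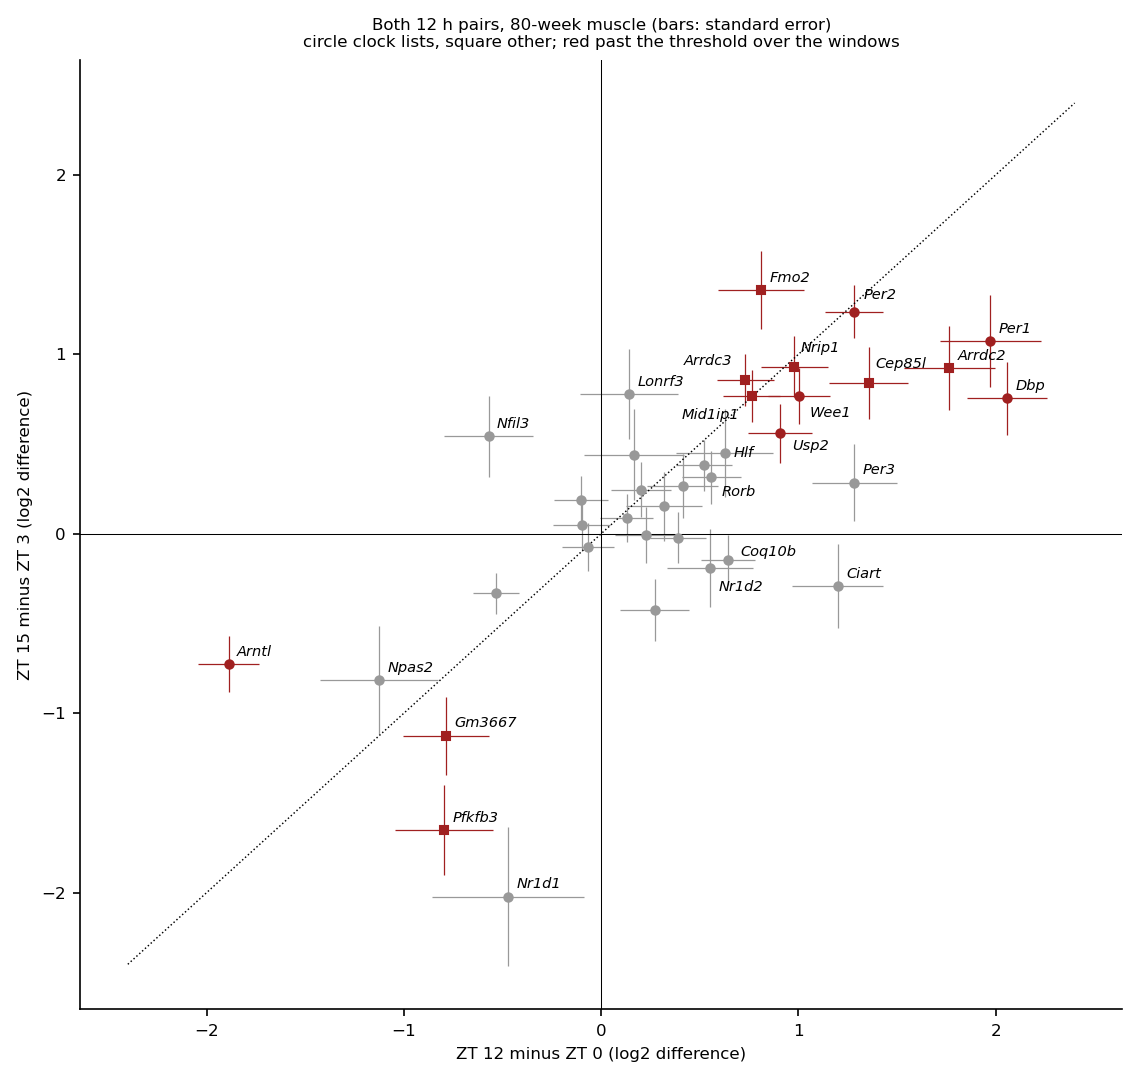
Log2 difference at ZT 12 minus ZT 0 (horizontal axis) against ZT 15 minus ZT 3 (vertical axis), with standard errors, for the genes of the clock lists (circles) and the other genes past the threshold (squares). Red marks genes past the threshold over the windows and the dotted line equal differences; Per2 lies near that line, while Arntl and Dbp have the larger size at ZT 12 minus ZT 0 and Nr1d1 and Pfkfb3 at ZT 15 minus ZT 3.

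The times pooled within a window were compared by an F test on ZT 3 minus ZT 0 and ZT 15 minus ZT 12 together. By limma, 0 genes passed (0%), with 924 at an unadjusted p under 0.05 and a lowest adjusted p of 0.634. Without ZT 15 repeat 1 there were 64, without ZT 3 repeat 2 there were 5 and without ZT 0 repeat 2 there was 1. Klk1, Banp, Arntl and Ciart were among the 5 genes of smallest p. Arntl differed by -0.25 between ZT 3 and ZT 0 and by 0.91 between ZT 15 and ZT 12. Banp had 6.77 to 7.06 at ZT 0, ZT 3 and ZT 12, but 7.76 and 7.81 at ZT 15.

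The same windows in muscle of mice aged 8 weeks, fitted over all 32 arrays, gave 59 genes higher in early dark and 47 higher in early light, against 23 and 11 at 80 weeks in that fit. Of the 14 genes, 13 passed at 8 weeks in the same direction, the exception being Gm3667 (-0.14 ± 0.265, adjusted p = 0.963). The size was smaller at 80 weeks in 12 of the 14, and the share over all genes was not counted. Arntl differed by -1.88 ± 0.0999 at 8 weeks and -1.31 at 80 weeks, Per1 by 2.15 ± 0.162 and 1.52, and Mid1ip1 by 1.11 ± 0.113 and 0.76. The test of the difference between the ages was passed by 0 genes with limma (0%), with 958 at an unadjusted p under 0.05 and a lowest adjusted p of 0.523, and leaving out ZT 15 repeat 1 gave 9 genes and ZT 3 repeat 2 gave 1. Among the 14 genes, 5 had an unadjusted p under 0.05 for that difference (Arntl at 0.57 ± 0.141, Per1 at -0.63 ± 0.229, Mid1ip1, Nrip1 and Gm3667), each with an adjusted p of 1.00. No difference between the ages was thus shown for any of them. The fit without ZT 15 repeat 1 had only ZT 15 repeat 2 at ZT 15 for 80 weeks. At 8 weeks, 2 of the 4 early light arrays carried liver transcripts, with means of 8.34 and 8.55 over 17 hepatocyte genes, taking as such an array one whose mean lay over 0.5 above the median of 6.62 over all 32. The 8 compared arrays at 80 weeks lay below that limit, at 5.97 to 6.97, which does not mean that they held no liver transcripts. Without all 6 such arrays of the series, 12 of the 14 passed at 8 weeks, Fmo2 being the further exception at 0.85 ± 0.191 (adjusted p = 0.133). Arntl then differed by -1.77 ± 0.123, Per1 by 2.05 ± 0.212, Mid1ip1 by 0.98 ± 0.113 and Dbp by 1.43 ± 0.208 at 8 weeks.

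**Figure D4:**
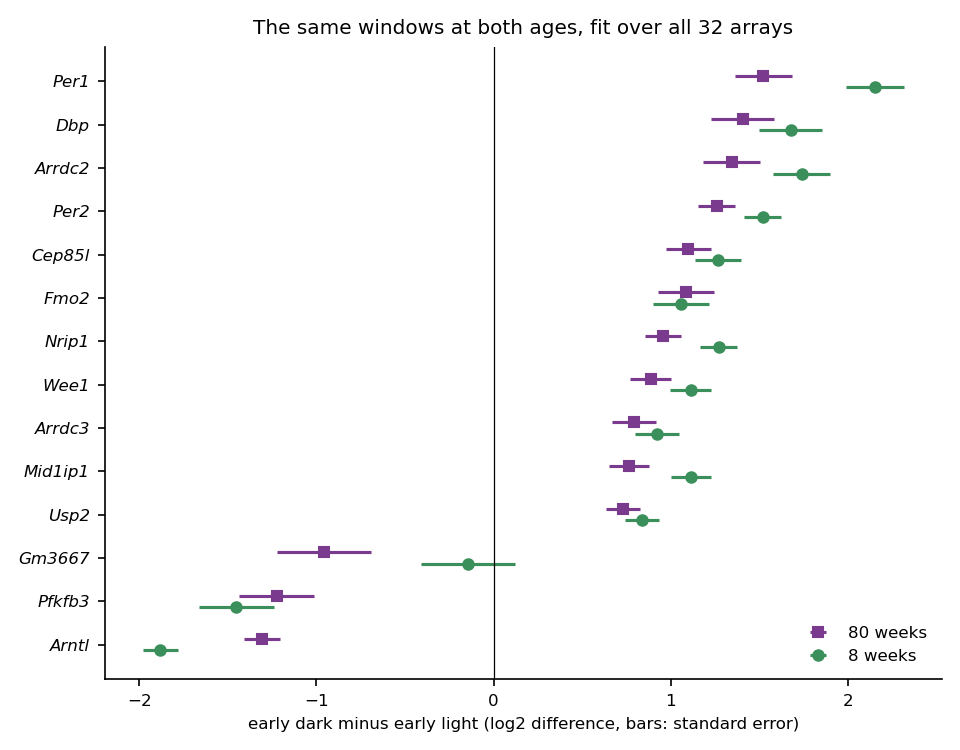
Early dark minus early light as a log2 difference (horizontal axis) with its standard error for the 14 genes past the threshold at 80 weeks (vertical axis), at 80 weeks (purple squares) and at 8 weeks (green circles), from a fit over all 32 arrays. Per1 and Arntl have the wider gaps between the ages among the clock genes, and Gm3667 lies near 0 at 8 weeks.

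The lists of pathways held 199 genes outside the clock lists, of which 0 were higher in early dark and 1, Pfkfb3, was higher in early light. The windows did not overlap in 18 of them (9.05%), 12 with early dark above and 6 with early light above, against 3.85% of all genes. Of 15 glucocorticoid targets, 0 passed, 14 had a difference above 0, with a median of 0.31, and 4 did not overlap, all with early dark above. Tsc22d3, a glucocorticoid-induced leucine zipper protein, had 9.10 to 9.33 in early light and 9.56 to 9.72 in early dark, a difference of 0.45 ± 0.106 (adjusted p = 0.248). Cebpd, a transcription factor of the acute response, differed by 0.42 ± 0.133 (adjusted p = 0.535). The exception in sign was Cdkn1a, an inhibitor of the cell cycle, at -0.64 ± 0.293. Without ZT 15 repeat 2, 12 of the 15 were above 0, with a median of 0.26, and the metallothionein gene Mt2 and Mertk had also turned below 0, to -0.21 and -0.02.

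In signalling and turnover of protein, Foxo1, a transcription factor that drives atrophy genes when insulin is low, had 8.01 to 8.26 in early light and 8.47 to 8.77 in early dark. Its difference of 0.47 ± 0.0856 did not pass (adjusted p = 0.0891). Fbxo32, an atrophy ubiquitin ligase that is a known target of Foxo1, had the opposite sign, -0.36 ± 0.118 (adjusted p = 0.565), with overlap. Irs1, the docking protein of the insulin receptor, had 8.59 to 8.86 in early light and 8.15 to 8.45 in early dark, a difference of -0.42 ± 0.0946 (adjusted p = 0.206). Nfe2l2, which encodes NRF2 of the oxidative stress response, had 9.04 to 9.26 against 9.47 to 9.69, a difference of 0.38 ± 0.0895 (adjusted p = 0.255). Of 14 genes of fatty acid and sterol synthesis, 0 passed and 11 had a difference below 0. Their mean was 8.11 to 8.49 in early light. In early dark it was 8.25 and 7.74 on repeats 1 and 2 of ZT 12, and 8.24 and 7.89 on those of ZT 15. The 7 adipocyte markers had means of 9.56, 8.22, 9.19 and 8.15 on the same arrays in that order, and 8.48 to 9.02 in early light. The part of fat in the pools was not tested. Srebf1 and Srebf2, regulators of this synthesis, differed by -0.35 ± 0.125 (adjusted p = 0.617) and -0.28 ± 0.104 (adjusted p = 0.657), and in Srebf2 the windows did not overlap.

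Other lists had 0 genes past the threshold. Of 15 genes of the heat and cold response, 7 had a difference above 0, and Dnajb1, a chaperone partner, had the smallest p, at 0.30 ± 0.120 (adjusted p = 0.692). Of 23 genes of oxidative phosphorylation and the TCA cycle, 21 had a difference below 0, with a median of -0.08, and none of them lacked overlap. Their mean was 10.04 to 10.24 in early light. The highest and the lowest mean were both in early dark, 10.28 on ZT 12 repeat 2 and 9.98 on ZT 12 repeat 1. Without ZT 15 repeat 2, 17 of the 23 genes were below 0, with a median of -0.12. For 12 genes of endoplasmic reticulum stress the median was 0.02, for 13 immediate early genes -0.01, for 8 interferon genes -0.04 and for 10 inflammation genes 0.15. Without ZT 15 repeat 2, which was the highest array for 6 of the inflammation genes and 8 of the endoplasmic reticulum genes, these medians were -0.02, -0.07, -0.06 and 0.06. Among the inflammation genes, S100a9, a neutrophil protein, had 4.79 to 5.16 against 5.17 to 5.42, a difference of 0.37 ± 0.114 (adjusted p = 0.519), and Socs3, a feedback inhibitor of cytokines, 0.52 ± 0.182, which was 0.30 ± 0.155 without ZT 15 repeat 2.

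Markers of other cell types found in muscle tissue gave 0 genes past the threshold of 179, and windows that did not overlap in 1.68% of them, against 3.85% of all genes. Collagen and matrix genes had a median difference of 0.24 with 16 of 20 above 0, and of -0.30 with 3 of 20 above 0 without ZT 15 repeat 2, so that their direction rested on that array. Among the other 7 arrays, ZT 0 repeat 1 in early light had the highest mean of this list, 8.64, against 7.81 to 8.13 on the rest. The direction without both arrays was not tested. Col1a1, of type I collagen, was at 12.1 on ZT 15 repeat 2, against 8.24 to 9.77 on the other 7 arrays. Periostin (Postn), a matrix protein of healing tissue, was at 11.4 there and at 9.09 on ZT 0 repeat 1, against 5.84 to 6.60 on the other 6. Without ZT 15 repeat 1, 1 collagen gene passed over the windows. In each of these fits 5 genes of the clock lists passed the threshold. Without ZT 15 repeat 2, Fmo2, Mid1ip1, Pfkfb3, Usp2 and Gm3667 no longer passed, at differences of 1.12, 0.76, -1.20, 0.75 and -1.003. The part of this array's matrix and macrophage signal in the other results was not tested beyond these values.

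**Figure D5:**
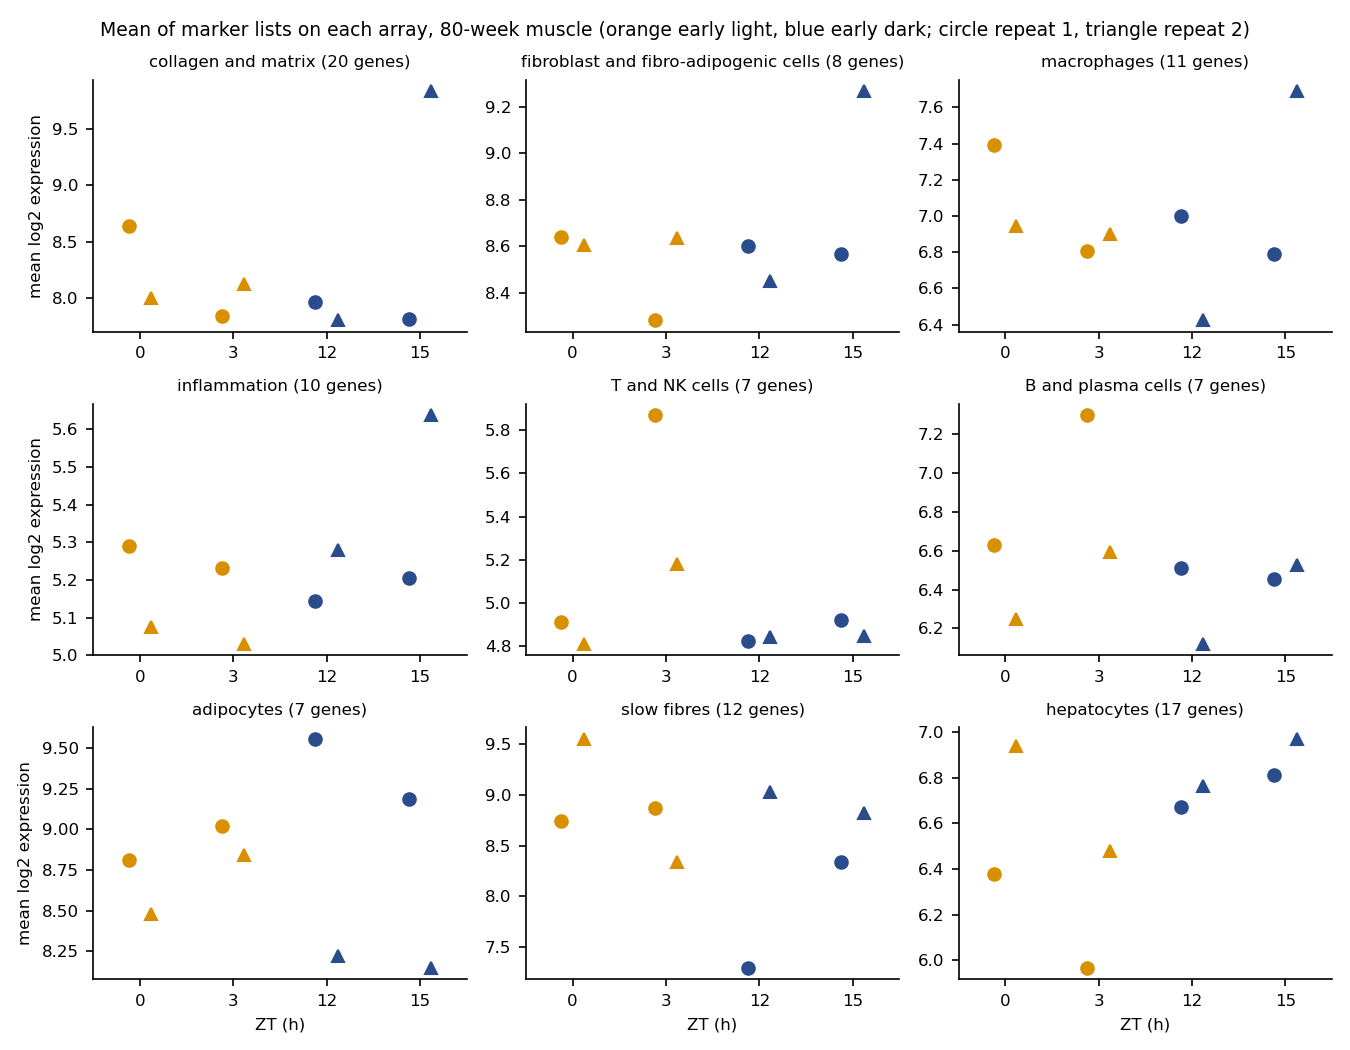
Mean log2 expression (vertical axis, a range of its own per list) of 9 lists of marker and inflammation genes on the 8 compared arrays by ZT (horizontal axis, h), orange for early light, blue for early dark, circles for repeat 1 and triangles for repeat 2. ZT 15 repeat 2 is highest for collagen, fibroblast, macrophage and inflammation genes, and ZT 3 repeat 1 for the T, NK, B and plasma cell lists.

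The means of the fibre and tissue marker lists also varied between the arrays. The 12 genes of slow fibres all had a difference below 0, with a median of -0.57, means of 8.34 to 9.55 in early light and 7.30 to 9.03 in early dark, and 0 past the threshold. The arrays of the windows thus overlapped, and the lowest value was ZT 12 repeat 1. Fast fibre genes had means of 12.76 to 12.98 on all 8 arrays. Of 17 hepatocyte genes, 16 had a difference above 0, with means of 5.97 to 6.94 in early light and 6.67 to 6.97 in early dark, and albumin (Alb) differed by 1.19 ± 0.699 (adjusted p = 0.832). The T and NK cell list had a mean of 5.87 on ZT 3 repeat 1, against 4.81 to 5.18 on the other 7 arrays, and all 7 genes had a difference below 0. With the slow minus fast fibre mean as a covariate 10 genes were higher in early dark and 3 in early light, and 11 of the 14 genes still passed. With the collagen mean as a covariate the counts were 12 and 5, with all 14 among them.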

How the data were processed

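Hindlimb muscle RNA, as pools of 3 mice, was measured on 32 arrays, of which the 8 at 80 weeks and ZT 0, 3, 12 and 15 were compared. The authors deposited log2 expression levels for 24479 probe sets. Per the submitters' processing notes these were made with R 3.2.2, affy 1.44.1 and RMA, a method that subtracts background, brings the arrays to like distributions and combines the probes of a set, which makes differences of dim genes smaller. Each probe set carries a gene ID as its name, and the build behind them is not given in the sources used here.

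Gene symbols came from the platform annotation, which gave 1 symbol for 23281 probe sets and none for 1198. Where probe sets had the same symbol, that of highest mean stood for the gene, giving 23279 genes with no filter on level. Array medians ran from 5.98 to 6.08. With arrays, precision is limited by their number.

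Tests used limma 3.58.1 in R 4.3.3, with ZT as a factor of 8 levels over the 16 arrays at 80 weeks (8 residual degrees of freedom) and age and ZT as 16 groups for the ages. The functions were tested on simulated data. The groups, gene lists, motifs and rules were chosen with earlier results of these data known. The rule names all genes of 5 clock lists, the genes past the threshold whose windows do not overlap, the 5 next by p in each direction, up to 4 members of each pathway list and the 5 genes of smallest p in each further test. Some genes of this rule have no values above. These include Mir1192 within a window, Olfr638 and Adh7 for ZT 15 against ZT 3, and all those of the test between ages. The latter were Adh7, S100a7l2, Scgb2b24, Defb26 and Vmn1r81. The genes named above for the ages were taken from those past the threshold over the windows. Postn and Col1a1 were named after their values were seen, as were Cdkn1a and Alb. Promoters came from a RefSeq table of build GRCm38.p6 and were matched by gene ID, for 17466 of the genes.

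Alternatives changed the arrays in the fit, the scaling, the filter, the probe sets, the variance model, array weights and covariates, and left out each array in turn. The labels give repeats the same numbers without saying that a number marks a day. The differences between repeats correlated by -0.169 to 0.217 over 28 pairs of ZT, with a median of 0.0722 and 11 over 0.1. At 7 of 8 ZT the mean of these correlations was above 0, a hint that arrays of the same number are alike. These means share the same 28 pairs and are not separate from each other. Since the labels do not pair the arrays, the numbers were not taken to pair them, though a pairing was not excluded.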

Additional observations from a re-analysis of the deposited data

Results flagged for a closer look

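In 108 sets of 4 arrays (each list mean and each gene past the threshold in each window) the outermost array was compared with the others by Dixon's ratio, with 0.829 as the 95% critical value. It was exceeded in 7 of them, and chance alone exceeds it in about 1 of 20. On ZT 15 repeat 2 the collagen and matrix mean was 9.83, against 7.81 to 7.97 on the other early dark arrays. This high level was known before the comparison, so that its flag is no separate finding. On the same array the mean of glucose and glycogen metabolism was 10.32, against 10.40 on each of the other early dark arrays. On ZT 3 repeat 1 the mean of oxidative phosphorylation and the TCA cycle was 10.04, against 10.21 to 10.24 on the other early light arrays, and that of fibroblasts was 8.28, against 8.60 to 8.64. On ZT 0 repeat 1 the bone and cartilage mean was 5.41, against 5.27 to 5.29, and the epidermis mean 6.17, against 5.36 to 5.46. Arrdc3 was at 8.63 on ZT 3 repeat 2, against 8.97 to 9.00. What these arrays have in common beyond these values was not tested.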

How the results depend on the processing

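Under 22 alternatives, 236 values of the 14 genes past the threshold still passed and 71 no longer did. None of the 14 changed sign, but many alternatives could not have changed one. The windows of all 14 did not overlap, so that leaving out 1 array keeps the sign. Fits that changed only the variance model, or added or dropped other arrays, kept the same difference. Per2 passed in 22 of 22, Arntl in 21 and Dbp in 20. The highest adjusted p by limma was 0.196 for both Arntl and Dbp. Both passed in all 8 fits without 1 array, so that they failed under other alternatives. Usp2 passed in 8 of 22. Gm3667 passed in 5 of 21, since the filter on level removed it. Genes higher in early dark numbered 4 with the 8 arrays as 2 groups (5 of the 14 still past), 3 with the 8 arrays and 4 ZT, 23 over 32 arrays, 24 with a filter on level and 20 with a trended, robust variance; those higher in early light numbered 11, 6 and 6 in the last 3 and 5 with the collagen covariate. With the repeat number as a replicate block 10 and 4 genes passed, 12 of the 14 among them. ZT 12 against ZT 0 gave 2 genes with the 8 arrays alone, 11 over 32 arrays, 11 with a trended variance and 2 with the slow minus fast fibre covariate. ZT 15 against ZT 3 gave 6 over 32 arrays, 2 with quantile scaling, median centring, the filter or a trended variance, and 0 with the replicate block, array weights, without arrays with liver transcripts or with the collagen, adipocyte or fibre covariate. Leaving out each array gave 2 to 28 genes higher in early dark, 1 to 11 higher in early light, 2 to 9 and 0 to 132 for the pairs of times, 0 to 64 within a window and 0 to 9 between ages. The cause of these shifts was not tested; the fits of 8 arrays have fewer samples and the filter fewer genes. A fit without 1 of the arrays leaves a single array at its ZT. Pools of 3 mice hide the spread between animals.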

Other observations

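Some genes beyond the lists stood out on ZT 15 repeat 2, and all were chosen after their values were seen. Tnc, which encodes the matrix protein tenascin C, was at 9.47 there and at 8.49 on ZT 0 repeat 1, against 5.64 to 5.94 on the other 6 compared arrays. Serpinb2, an inhibitor of plasminogen activators, was at 7.72 there, against 3.37 to 4.33 on the other 7. Timp1, an inhibitor of matrix proteases, was at 7.06, against 4.11 to 4.66, and the alarmin Il33 at 8.78, against 6.02 to 6.59. Mmp3, a matrix protease, was at 7.13, against 4.48 to 5.03. These values belong to 1 pool of 3 mice and support no comparison between the windows.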
